A study of Homo sapiens with 9 samples.

Results

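The genes described here are 10 targets and feedback regulators of the Wnt pathway, DKK1, DKK4, AXIN2, LGR5, NKD1, RNF43, ZNRF3, SP5, TCF7 and NOTUM, followed on 9 oligonucleotide arrays of HepG2 cells. In Wnt signalling a secreted Wnt protein binds a Frizzled receptor with its co-receptor LRP5 or LRP6, the complex that marks beta-catenin for destruction is held off, and beta-catenin enters the nucleus and activates genes together with TCF/LEF factors. Many of those genes encode brakes on the pathway, so that signalling limits itself. In liver the pathway is known for setting the gene programme of hepatocytes around the central vein, and HepG2, a line from a human liver tumour, carries a shortened, stabilised form of beta-catenin.

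The 3 groups of 3 arrays were HepG2 cells labelled HNF4a&HNF4g_knockdown1, the same cells labelled HNF4a&HNF4g_knockdown2, and HepG2 cells labelled as the control of these knockdowns. Per the series' design text, small interfering RNAs were directed at HNF4alpha and HNF4gamma together, which are nuclear receptors that bind DNA in hepatocytes and other epithelia. What sets knockdown1 apart from knockdown2, what the control received, and whether arrays came from separate cultures are not given by the labels, so each p-value reflects array-to-array spread that could be technical. All groups are of 1 transformed cell line and describe no normal tissue.

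The genes were chosen by name, as Wnt targets and antagonists, with earlier results of these data known. Their probe sets were selected on brightness, the mean log2 signal over all 9 arrays, among those annotated to 1 of these symbols alone. This gave 15 probe sets for 9 of the 10 genes, out of 54675 probe sets on the array. TCF7 was not analysed here. All 9 genes passed the filter on dim probe sets and were among the 13056 genes tested. DKK4 passed through its knockdown1 and control arrays only, since all 3 knockdown2 arrays lay below the array median. Of the 3 genes with several probe sets, AXIN2 was represented by a probe set with a mean log2 signal of 10.60, against 7.99 for the next, and LGR5 by one at 10.50, against 8.96. For NKD1 the choice was close, with 8.28 for the probe set used and 8.27 for the next.

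Values are MAS5 signals, a relative brightness with no count behind it, multiplied per array (by 0.898 to 1.15) to a common median of 14.1. Fold changes are differences of log2(signal + 1.41), which understate changes of dim genes, and a gene is called where limma's p-value, adjusted by the Benjamini-Hochberg method over all tested genes, is under 0.05. The number of arrays, 3 a group, limits the precision. HNF4G, a target of the knockdown, had a scaled signal of 18.5 ± 4.66 in knockdown1, 31.6 ± 9.14 in knockdown2 and 46.0 ± 1.65 in control (SD, n = 3 each), and it fell in knockdown1 (log2 fold change -1.28, SE 0.28, limma adjusted p = 0.000538) but was not called in knockdown2 (-0.56, SE 0.28, adjusted p = 0.141), where the mean over the HNF4G probe sets was called (-1.52, adjusted p = 0.0111). The dimmer HNF4G probe set in that mean passed the filter only through the 3 control arrays (37.5, 28.4 and 21.3). The filter itself thus favoured a lower value in the knockdowns, so the call of the mean is no separate check. HNF4A was not analysed here. All 9 hepatic and epithelial markers, albumin and alpha-fetoprotein among them, were above the median on every array, and TF, APOA1 and TTR fell over both knockdowns. Of 11 fibroblast, endothelial and leukocyte markers, CDH5, VWF, KDR, PTPRC and CD3E were above the median on no array. COL1A1 and PECAM1 were above it on all 9, DCN on 7, COL1A2 on 6, CD14 on 3 and LUM on 1. The summed signal of the 4 endothelial markers was 74.4 to 91.9 in knockdown1, 87.5 to 108.8 in knockdown2 and 59.7 to 61.8 in control, carried by PECAM1. PECAM1, the 1 of these tested, was called higher in knockdown1 (0.49) and knockdown2 (0.69). The 4 fibroblast markers, 3 of which passed the filter, summed to 83.2 to 107 in knockdown1, 91.0 to 99.9 in knockdown2 and 77.6 to 127.7 in control, ranges that overlap, and DCN was called lower in knockdown1 (-1.19, SE 0.44, adjusted p = 0.0389). That of the 3 leukocyte markers was 11.1 to 17.5 in knockdown1, 14.2 to 20.2 in knockdown2 and 31.3 to 49.1 in control, carried by CD14, which passed the filter only through the 3 control arrays. Their part in the results was not tested. In RNA from whole cultures, fewer cells that express a gene and less RNA per cell cannot be told apart.

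Promoter windows of DKK1, RNF43 and SP5 are shown because these genes, of those whose windows were searched, showed 3 patterns: DKK1 rose in both knockdowns, RNF43 fell in knockdown2, and SP5 was not called in any comparison. The windows run from 250 bases before to 50 after an annotated gene start, are credited to RefSeq on GRCh38.p14, and are written 5′ to 3′ on the gene's strand. DKK1 lies at chr10:52314031-52314330 (plus strand), RNF43 at chr17:58417485-58417784 (minus strand, the first of 2 windows) and SP5 at chr2:170715087-170715386 (plus strand). Capitals mark CAAAG on either strand, the core that binding sites of TCF/LEF factors and of HNF4 both hold, and, in SP5, the 7 bases of the TCF/LEF core CTTTGAT.
DKK1: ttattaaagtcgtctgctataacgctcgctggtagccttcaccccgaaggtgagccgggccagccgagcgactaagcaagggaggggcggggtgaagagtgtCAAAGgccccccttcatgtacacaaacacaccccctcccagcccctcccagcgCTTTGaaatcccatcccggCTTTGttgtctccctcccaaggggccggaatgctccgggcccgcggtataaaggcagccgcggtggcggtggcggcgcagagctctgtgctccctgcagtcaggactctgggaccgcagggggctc
RNF43: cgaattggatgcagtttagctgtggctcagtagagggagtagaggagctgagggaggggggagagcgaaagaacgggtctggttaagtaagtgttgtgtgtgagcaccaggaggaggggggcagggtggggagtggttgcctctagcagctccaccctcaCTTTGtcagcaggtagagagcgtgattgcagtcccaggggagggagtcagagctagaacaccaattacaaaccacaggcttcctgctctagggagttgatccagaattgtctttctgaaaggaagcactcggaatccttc
SP5: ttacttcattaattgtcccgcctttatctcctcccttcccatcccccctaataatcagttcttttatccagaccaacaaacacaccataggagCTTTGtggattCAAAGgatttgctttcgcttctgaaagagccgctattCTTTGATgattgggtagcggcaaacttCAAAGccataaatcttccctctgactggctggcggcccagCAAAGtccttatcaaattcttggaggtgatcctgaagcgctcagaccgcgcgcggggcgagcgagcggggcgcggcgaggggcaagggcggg

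Windows of 4 of the genes were searched (DKK1, RNF43, SP5 and TCF7), and any DKK4 window was left out. CTTTGAT, searched on both strands, was in the SP5 window alone among these, beginning 109 bases before the gene start. It was in 2.62% of all 35116 windows. The HNF4 motif CAAAGTCCA was in no window of these 4 genes and in 0.384% of all windows. CAAAG, which overlaps both longer motifs, occurred 3 times in DKK1, 5 times in SP5 and once in each RNF43 window. It occurred 0 times in TCF7 window 1 and 2 times in TCF7 window 2. Any match of CAAAG was found in 47.5% of all windows. These matches describe the letters only.

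Over both knockdowns against control, DKK1, AXIN2 and NKD1 rose, DKK4 and RNF43 fell, and LGR5, ZNRF3, SP5 and NOTUM were not called. The 3 of 9 that rose stand beside 14.7% of all tested genes called higher, and the 2 of 9 that fell beside 17.9% called lower. For DKK1, DKK4, AXIN2 and NKD1, 4 of the 9, all 6 knockdown arrays lay on 1 side of the 3 control arrays, which held for 20.9% of all tested genes. The median log2 fold change of the 9 genes was -0.07, beside -0.01 over all tested genes, and the range ran from -2.54 for DKK4 to 1.53 for DKK1. In knockdown1 against control 3 rose and 1 fell (14.3% and 19.0% of all tested genes). In knockdown2 against control 4 rose and 2 fell (13.7% and 13.9%). Directly compared, 2 were higher and 1 lower in knockdown1 than in knockdown2 (10.5% and 16.1%). With the values as deposited, the calls over all genes numbered 3105 higher and 2628 lower in knockdown1 against control (1866 and 2485 after scaling), 2275 higher and 2607 lower in knockdown2 against control (1795 and 1813 after scaling), and 2803 higher and 2104 lower in knockdown1 against knockdown2 (1368 and 2105 after scaling). In the comparisons with knockdown1 on top, the share called higher was thus larger without scaling. This held among the called genes and among all tested genes. In knockdown2 against control the share called higher was smaller without scaling among the called genes, but larger among all tested genes. Both knockdowns share the same control arrays, so their values are set side by side and no agreement between them is read.

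**Figure D1:**
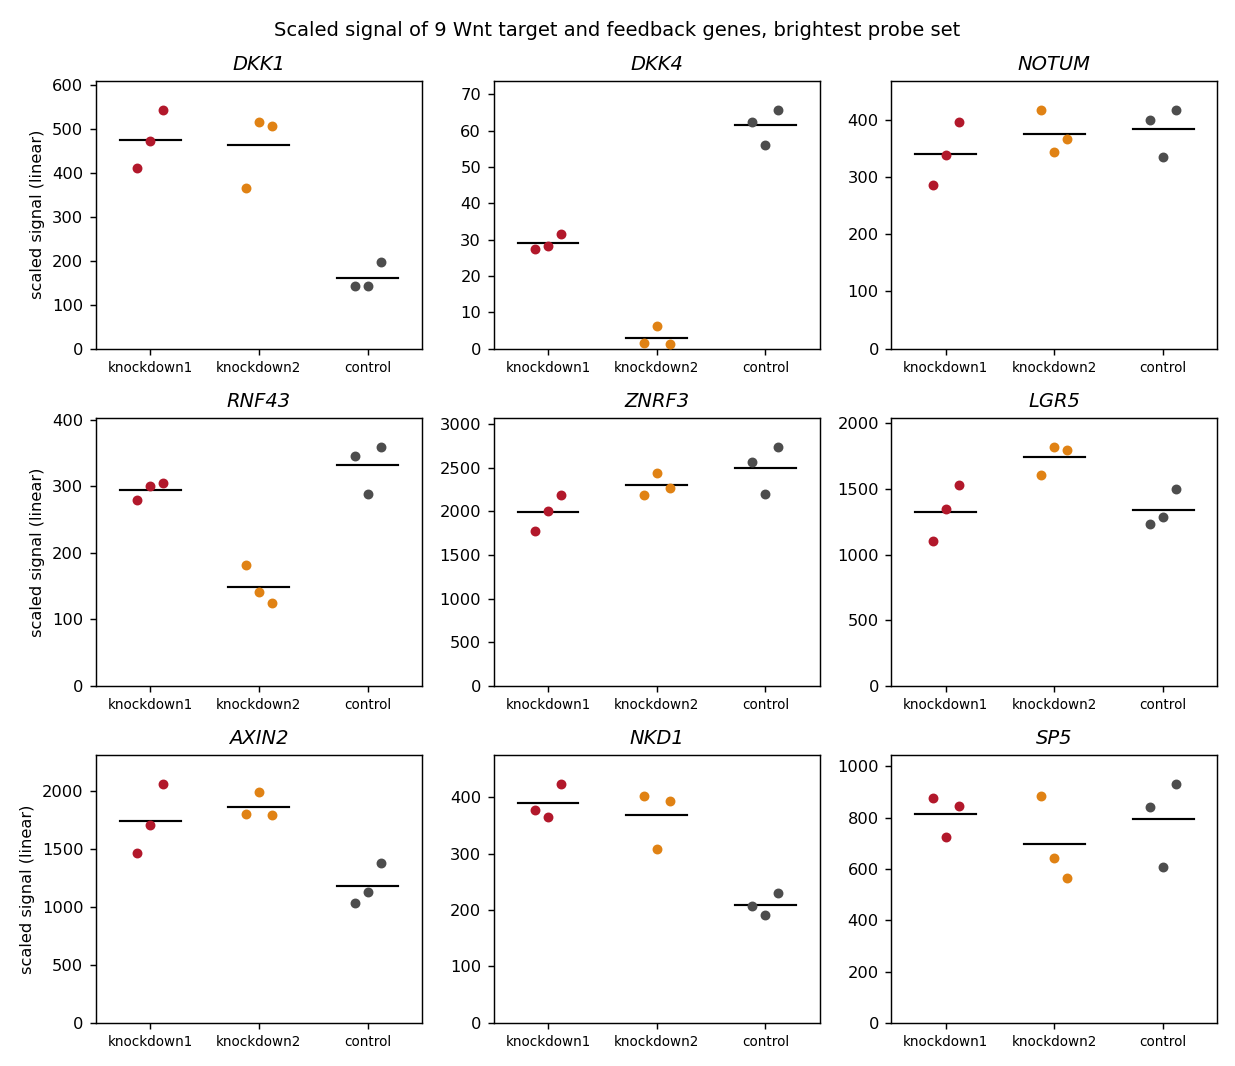
Scaled signal on a linear axis from 0 for the brightest probe set of each of 9 genes; points are single arrays of knockdown1, knockdown2 and control and lines are group means. DKK1, AXIN2 and NKD1 lie higher in both knockdowns than in control, DKK4 is lowest in knockdown2 at 1.16 to 6.22, and RNF43 is low in knockdown2 only.

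Among the secreted antagonists, DKK1 and DKK4 moved in opposite directions. DKK1 encodes Dickkopf-1, which binds LRP5 and LRP6 and keeps Wnt proteins from using them. Its scaled signal was 413, 473 and 545 in knockdown1, 366, 517 and 507 in knockdown2, and 144, 144 and 198 in control. Every knockdown array was well above every control array, and the knockdown groups overlapped. DKK1 rose by 1.56 in knockdown1 (log2, SE 0.17, limma adjusted p = 2.30e-08) and by 1.51 in knockdown2 (SE 0.17, adjusted p = 7.26e-08). The difference between the knockdowns was 0.05 with a 95% interval of -0.30 to 0.39. Its rise was called under every alternative run, with log2 values of 1.46 to 1.69 over both knockdowns when single arrays were left out.

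DKK4 encodes Dickkopf-4, a further secreted inhibitor that acts on the same co-receptors. Its scaled signal was 27.5, 28.3 and 31.4 in knockdown1, 1.45, 6.22 and 1.16 in knockdown2, and 62.4, 56.1 and 65.8 in control. The 3 groups did not overlap, with control highest, knockdown1 in the middle and knockdown2 near the bottom of the measured range. DKK4 fell by 4.03 in knockdown2 (log2, SE 0.40, limma adjusted p = 9.78e-09), and the direct difference, knockdown1 minus knockdown2, was 2.99 (SE 0.40, adjusted p = 1.51e-06). The size of the fall in knockdown2 depends on the pseudocount, at -4.70 with a pseudocount of 0.01 of the median and -2.16 with one equal to the median. In knockdown1 DKK4 fell by 1.04 (SE 0.40, adjusted p = 0.0463). This was no longer called when any single knockdown1 or control array was left out (-1.10 to -0.99, adjusted p = 0.0875 to 0.131), with the values as deposited (-0.96, adjusted p = 0.0641), without the filter (adjusted p = 0.0984), with a pseudocount of 0.01 of the median (adjusted p = 0.106) or without the variance trend (adjusted p = 0.0556). The fall in knockdown1 stayed called with only the arrays of the groups compared (-1.04, SE 0.25, limma adjusted p = 0.000179). It was also called with a pseudocount equal to the median (-0.81, adjusted p = 0.00182) and without any single knockdown2 array (adjusted p = 0.0154 to 0.0188). Quantile normalization, the mean over probe sets and the replicate block left it just under the threshold (adjusted p = 0.0425 to 0.0482). With the 6 knockdown arrays as 1 group, DKK4 missed the threshold over both knockdowns (adjusted p = 0.0514).

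NOTUM encodes a secreted enzyme that removes the lipid Wnt proteins need for binding. Its scaled signal was 286, 338 and 396 in knockdown1, 417, 343 and 367 in knockdown2, and 399, 335 and 417 in control. All groups overlapped. The log2 difference over both knockdowns was -0.10 (95% interval -0.38 to 0.17, limma adjusted p = 0.606), an interval that leaves out changes as large as those of DKK1 or DKK4.

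**Figure D2:**
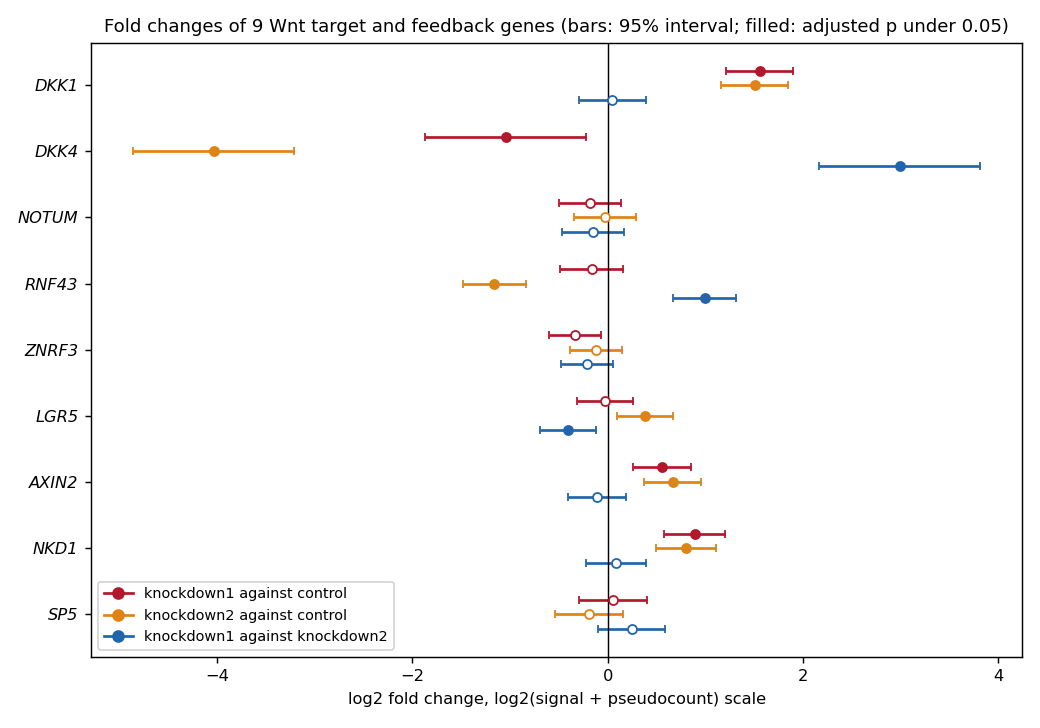
Log2 fold changes (x axis, log2(signal + pseudocount) scale) of 9 genes in knockdown1 against control, knockdown2 against control and knockdown1 against knockdown2, with 95% intervals; filled points have a limma adjusted p under 0.05. DKK1, AXIN2 and NKD1 sit right of 0 in both knockdowns, while DKK4 (-4.03) and RNF43 (-1.16) reach furthest left in knockdown2.

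At the cell surface, the paired enzymes RNF43 and ZNRF3 did not show the same pattern. Both encode membrane ubiquitin ligases that remove Frizzled receptors from the surface. RNF43 had scaled signals of 279, 300.0 and 305 in knockdown1, 182, 140.5 and 124 in knockdown2, and 346, 289 and 359 in control. The knockdown2 arrays lay below all others, and knockdown1 overlapped with control. In knockdown2 RNF43 fell by 1.16 (log2, SE 0.16, limma adjusted p = 2.03e-06), while in knockdown1 its difference from control was -0.16 (95% interval -0.49 to 0.16, adjusted p = 0.472). Knockdown1 was higher than knockdown2 by 1.00 (SE 0.16, adjusted p = 1.78e-05). The value over both knockdowns (-0.66, SE 0.14, adjusted p = 0.000378) averages unlike groups, and it missed the threshold with the 6 arrays as 1 group (adjusted p = 0.145).

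ZNRF3 had scaled signals of 1773, 2006 and 2189 in knockdown1, 2184, 2439 and 2273 in knockdown2, and 2568, 2199 and 2740.0 in control. Knockdown1 lay just below the control arrays and knockdown2 overlapped with them. The log2 difference was -0.33 in knockdown1 (SE 0.13, 95% interval -0.60 to -0.06, limma adjusted p = 0.0510) and -0.12 in knockdown2 (SE 0.13, adjusted p = 0.560). ZNRF3 was called lower in knockdown1 with the values as deposited (-0.24, adjusted p = 0.0115), after quantile normalization (-0.20, adjusted p = 0.0156), with a filter that asks for all 9 arrays (-0.33, adjusted p = 0.0422), without knockdown1 replicate 3 (-0.40, adjusted p = 0.0187) and without control replicate 2 (-0.42, adjusted p = 0.0117), so it stands at the edge of the test. Quantile normalization also called it lower in knockdown2 (-0.16, adjusted p = 0.0477). The difference between the knockdowns was -0.21 (adjusted p = 0.255).

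LGR5 encodes a receptor for R-spondins, the secreted proteins that hold back RNF43 and ZNRF3, and marks stem cells in several epithelia. Its scaled signal was 1100.1, 1348 and 1534 in knockdown1, 1609, 1821 and 1797 in knockdown2, and 1237, 1289 and 1501 in control. The knockdown2 arrays lay above the other 6, which overlapped. LGR5 rose by 0.38 in knockdown2 (log2, SE 0.14, limma adjusted p = 0.0431), differed from control by -0.02 in knockdown1 (SE 0.14, adjusted p = 0.919), and was lower in knockdown1 than in knockdown2 by a direct difference of -0.40 (SE 0.14, adjusted p = 0.0320). Its second probe set gave 350.0, 446 and 537 in knockdown1, 613, 549.6 and 655 in knockdown2, and 473, 458 and 462 in control, with 0.38 in knockdown2 (adjusted p = 0.0683 over all probe sets) and -0.46 between the knockdowns (adjusted p = 0.0270). The call in knockdown2 ended without any of its own arrays (0.35 to 0.44, adjusted p = 0.0610 to 0.157) and without control replicate 1 or 2 (adjusted p = 0.187 and 0.0732). Between the knockdowns it ended without knockdown1 replicate 1 or 2 (adjusted p = 0.238 and 0.0591) and without knockdown2 replicate 2 or 3 (adjusted p = 0.132 and 0.118), and both calls ended without the filter (adjusted p = 0.0807 and 0.0650) or the variance trend (adjusted p = 0.117 and 0.102).

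Inside the cell, the feedback genes AXIN2 and NKD1 rose. AXIN2 encodes a scaffold of the complex that destroys beta-catenin and is the most widely used readout of Wnt signalling. Its brightest probe set gave 1464, 1702 and 2059 in knockdown1, 1804, 1992 and 1790.5 in knockdown2, and 1029, 1132 and 1377 in control. All 6 knockdown arrays exceeded the 3 control arrays, and the knockdowns overlapped. AXIN2 rose by 0.56 in knockdown1 (log2, SE 0.14, limma adjusted p = 0.00305) and by 0.67 in knockdown2 (SE 0.14, adjusted p = 0.000715), with -0.11 between them (95% interval -0.40 to 0.19). Of its other 3 probe sets, 2 were also called over both knockdowns, at 0.72 (SE 0.12) and 0.69 (SE 0.19). The dimmest, at 79.5 ± 3.28 in knockdown1, 87.1 ± 8.15 in knockdown2 and 69.3 ± 11.1 in control (SD, n = 3 each), had the same sign and was not called (0.27, SE 0.15, adjusted p = 0.182).

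NKD1 encodes Naked cuticle homolog 1, which binds Dishevelled and dampens the signal. The probe set used gave 378, 365 and 424 in knockdown1, 403, 309 and 393 in knockdown2, and 208, 191 and 229 in control. By this probe set NKD1 rose by 0.89 in knockdown1 (log2, SE 0.15, limma adjusted p = 2.86e-05) and by 0.81 in knockdown2 (SE 0.15, adjusted p = 0.000150), and the knockdowns overlapped. The other probe sets gave the same order of group means, knockdown1 above knockdown2 above control, but differed in how far knockdown2 lay from control.

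The NKD1 probe set next in brightness gave 364, 416 and 418 in knockdown1, 309.8, 284 and 311 in knockdown2, and 260.0, 231 and 241 in control. Its 3 groups did not overlap, with knockdown1 highest, and it was called in knockdown1 (0.71, SE 0.13, adjusted p = 0.000333 over all probe sets) but not in knockdown2 (0.30, SE 0.13, adjusted p = 0.102). The dimmest NKD1 probe set gave 523, 486 and 619 in knockdown1, 228, 192 and 227 in knockdown2, and 169, 132 and 203 in control. It rose by 1.70 in knockdown1 (SE 0.16, adjusted p = 8.55e-08), was not called in knockdown2 (0.37, SE 0.16, adjusted p = 0.101), and differed by 1.32 between the knockdowns (SE 0.16). All 3 NKD1 probe sets were thus higher in knockdown1 than in control, while the rise in knockdown2 and the difference between the knockdowns depended on the probe set. With the mean over the 3 probe sets, knockdown1 exceeded knockdown2 by 0.60 (SE 0.13, adjusted p = 0.00247), against 0.09 for the probe set used (adjusted p = 0.740).

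**Figure D3:**
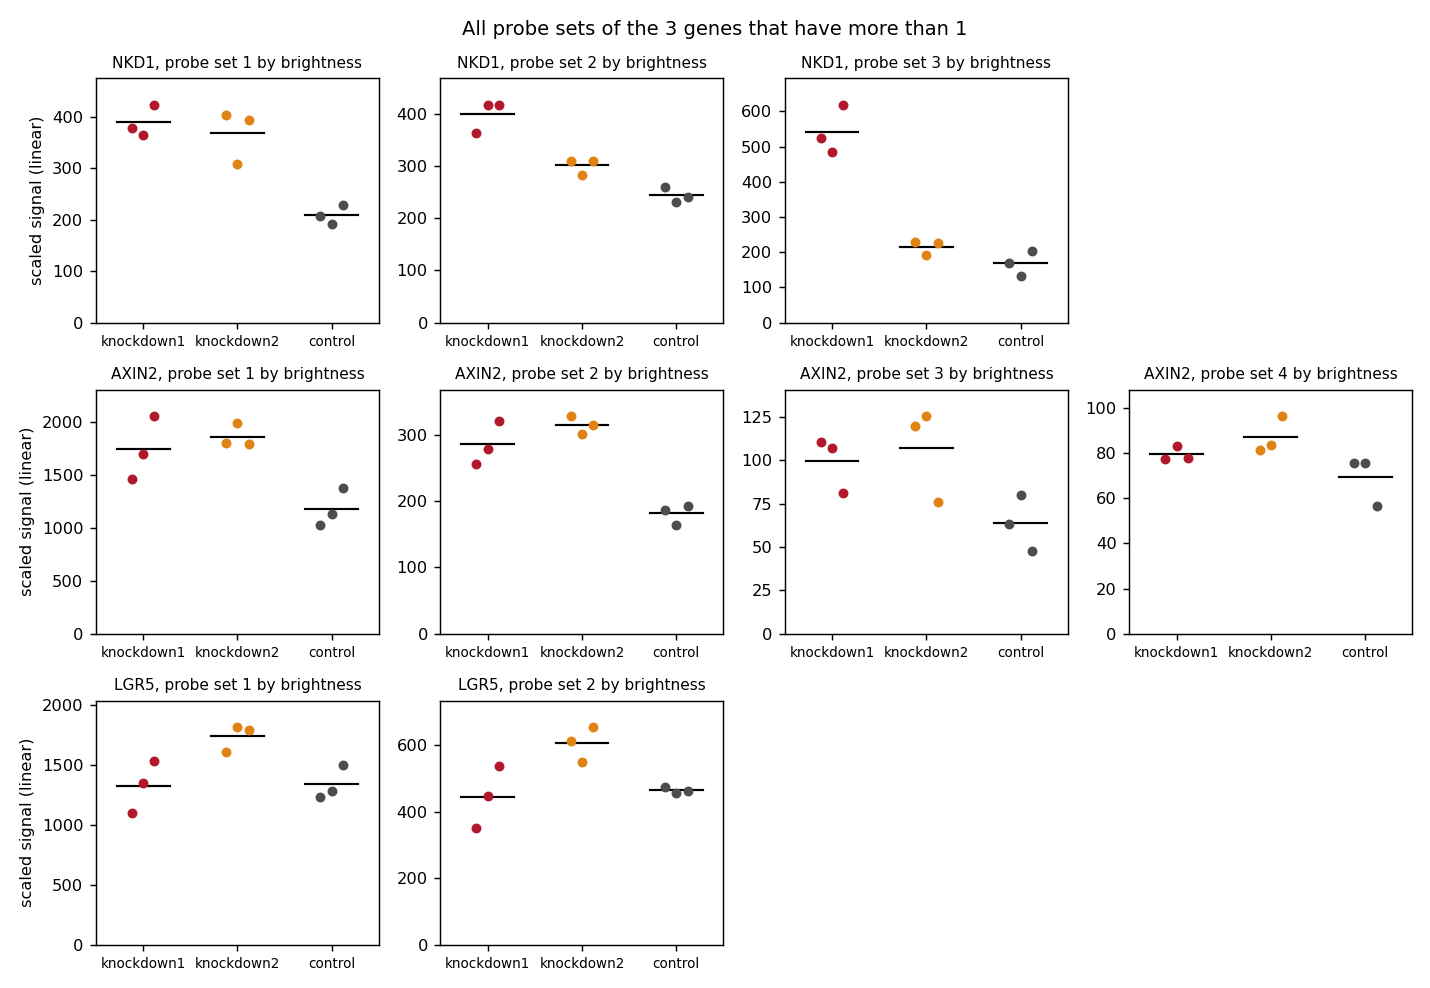
Scaled signal (linear axis from 0) of every probe set of NKD1, AXIN2 and LGR5, in order of brightness; points are single arrays of knockdown1, knockdown2 and control and lines are group means. The order of group means is the same on all probe sets of each gene, but knockdown2 of NKD1 lies near knockdown1 on probe set 1 (368 against 389) and near control on probe set 3 (215 against 168).

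SP5 encodes a zinc finger transcription factor that is a direct target of beta-catenin. It had scaled signals of 876, 723 and 847 in knockdown1, 883, 641 and 565 in knockdown2, and 841, 609 and 931 in control. The groups overlapped, and knockdown2 and control were widely spread. Its log2 difference was 0.06 in knockdown1 (95% interval -0.29 to 0.40, limma adjusted p = 0.837) and -0.19 in knockdown2 (95% interval -0.54 to 0.15, adjusted p = 0.452). Between the knockdowns it was 0.25 (adjusted p = 0.314), which was called with the values as deposited (0.37, adjusted p = 0.0497) and after quantile normalization (0.40, adjusted p = 0.0363). These intervals hold no change of the size seen for DKK1, but they would hold one below that of AXIN2.

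Of 137 further Wnt pathway genes in 8 lists, 86 were tested, and over both knockdowns 20 rose (23.3%) and 19 fell (22.1%), with a median of 0.10. Over all tested genes 14.7% were called higher and 17.9% lower, so the share that fell was near that background, and the counts per list that follow describe few genes each. CTNNB1, which encodes beta-catenin, was not called (0.08, SE 0.12, limma adjusted p = 0.669). Of 10 receptor genes tested, 5 fell and 2 rose (median -0.43). FZD4, a Frizzled receptor gene, had scaled signals of 96.7 ± 3.05 in knockdown1, 243 ± 24.0 in knockdown2 and 509 ± 49.9 in control (SD, n = 3 each), and it fell by 2.37 and 1.06 on the log2 scale in knockdown1 and knockdown2 (SE 0.15 each). FZD5 fell (-0.88, SE 0.14), although its dimmer probe set gave -0.17 (adjusted p = 0.465), and the co-receptor gene LRP6 rose (0.59, SE 0.13, with 0.81 and 0.89 for its other probe sets). FZD1 also fell (-0.86, SE 0.24), but was not called without control replicate 1 (-0.72, adjusted p = 0.0739). It was called in knockdown1 (-1.13, limma adjusted p = 0.00194) and not in knockdown2 (-0.60, adjusted p = 0.115). LGR4, a paralogue of LGR5, was the 1 called of 2 tested genes of Wnt secretion and R-spondin signalling. It fell by 0.91 in knockdown1 (SE 0.14) and was not called in knockdown2 (-0.27, adjusted p = 0.179), and its other probe set was not called over both knockdowns (-0.63, adjusted p = 0.0878).

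Among Wnt ligands 1 of 7 tested genes was called, WNT10B (1.54, SE 0.58, adjusted p = 0.0424). It passed the filter only through 3 knockdown arrays, with signals of 17.5, 22.7 and 18.0, and lay below the array median on the other 3 knockdown arrays and all control arrays, so the filter itself favoured a higher value there. It was no longer called without knockdown1 replicate 3, knockdown2 replicate 2 or 3, or control replicate 1 or 2 (adjusted p = 0.0601 to 0.119). Of 4 tested antagonists outside the 10 genes, 0 were called. In the destruction complex and Dishevelled list 4 of 17 rose and 1 fell (median 0.18). CSNK1E, a casein kinase gene, was higher (0.77, SE 0.17) by its brightest probe set (0.31, adjusted p = 0.431, by the other). The 0.77 averages unlike groups. By the brightest probe set CSNK1E rose in knockdown2 (1.29, SE 0.20) and was not called in knockdown1 (0.25, limma adjusted p = 0.361). The direct difference, knockdown1 minus knockdown2, was -1.04 (adjusted p = 0.000166). BTRC, a ubiquitin ligase subunit gene, was lower by its brightest probe set (-0.69, SE 0.14) and by another (-0.66, adjusted p = 0.0147). The remaining BTRC probe sets were not called (-0.33, SE 0.17, and 1.27, SE 0.61). Neither was the mean of its probe sets (-0.10, adjusted p = 0.741). DVL1, a Dishevelled gene, rose (0.55, SE 0.17), but not without control replicate 2 (0.34, adjusted p = 0.131). Of 18 genes for beta-catenin and its nuclear partners 6 rose and 2 fell (median 0.18). There the co-repressor genes TLE4 and TLE1 fell by their brightest probe sets (-0.84, SE 0.14, and -0.61, SE 0.13). Of the other probe sets, 0 of 4 were called for TLE4 (-0.47 to -0.09) and 1 of 4 for TLE1 (-0.84 to -0.27). TLE5, whose short product lacks the repressor domain, rose (0.98, SE 0.14). The co-activator gene BCL9L was higher by its brightest probe set (0.88, SE 0.15) and not called by the other (0.18, adjusted p = 0.467).

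Of 18 other textbook targets tested, 5 rose and 5 fell (median 0.20). The transcription factor gene SOX4 rose by 2.09 (SE 0.12), with scaled signals of 1445 ± 115 in knockdown1, 1442 ± 131 in knockdown2 and 339 ± 27.8 in control (SD, n = 3 each), and 3 of its 4 other probe sets were called (0.47 to 3.05 over all 4). FOSL1 rose by 1.15 (SE 0.14) and BAMBI, a decoy receptor gene of TGF-beta signalling, by 1.00 (SE 0.12). Of 10 liver targets of beta-catenin tested, 5 fell and 2 rose (median -0.41). CPN2 and RGN, which encode a carboxypeptidase subunit and the calcium-binding protein regucalcin, fell by 2.36 (SE 0.16) and 2.08 (SE 0.14), and the ammonium transporter gene RHBG fell by 1.06 (SE 0.16), while the T-box factor gene TBX3 rose by 0.81 (SE 0.12). RHBG, like RNF43 and DKK4, was lower in knockdown2 than in knockdown1, by a direct difference, knockdown1 minus knockdown2, of 1.07 (SE 0.19, adjusted p = 5.41e-05).

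**Figure D4:**
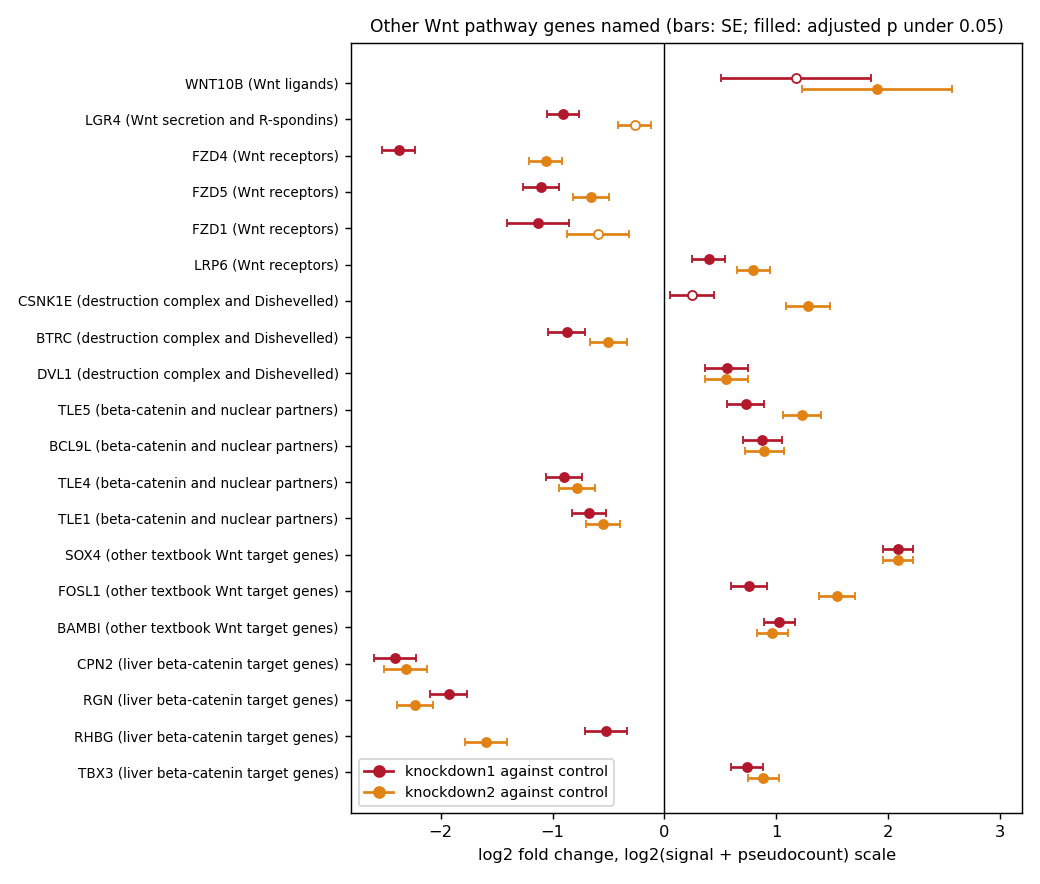
Log2 fold changes (x axis, log2(signal + pseudocount) scale) of 20 other Wnt pathway genes in knockdown1 and in knockdown2 against control, with SE bars; filled points have a limma adjusted p under 0.05, and the list of each gene is in parentheses. FZD4 falls furthest among the receptors (-2.37 in knockdown1), and SOX4 rises by 2.09 in both knockdowns.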

How the data were processed

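The deposited values are probe-set intensities of 9 arrays, summarised by the authors with MAS5, per the submitters' processing notes. The 2% trimmed mean of every array was 100.0, and the array medians of the deposited intensities ran from 12.3 to 15.7. No detection calls were used. Arrays were multiplied to a common median of 14.1 and analysed as log2(signal + 1.41). Of 54675 probe sets, 41091 carried 1 gene symbol in the platform annotation, 1801 several and 11721 none, and 62 were control probe sets. Symbols were checked through gene identifiers against RefSeq, and 0 changed. Probe sets above the array median on at least 3 of 9 arrays were kept (24565 with 1 symbol), and the brightest per gene gave 13056 genes.

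One linear model of the 3 groups was fitted to all arrays (R 4.3.3, limma 3.58.1). Its moderated tests used lmFit, contrasts.fit and eBayes with trend, were two-sided, and were adjusted by Benjamini-Hochberg across every tested gene. The fit was tested on simulated data. No 2 arrays shared more than 1.37% of their values exactly. The genes and the pathway lists were chosen with earlier results of these data known. Named were all 10 genes, HNF4G and HNF4A, from each pathway list the 3 called genes with the largest change and up to 1 against the majority, and the 2 genes most like each of the 4 members that changed most. Alternatives covered scaling, pseudocount, filter, probe-set rule, variance trend, arrays in the fit, a replicate block and leaving out each array. The fit with the 6 knockdown arrays as 1 group was added after seeing the data.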

Additional observations from a re-analysis of the deposited data

Results flagged for a closer look

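Of the 9 genes, 3 differed between the knockdowns by the direct test, knockdown1 minus knockdown2. DKK4 was higher in knockdown1 by a log2 difference of 2.99 (limma adjusted p = 1.51e-06, SE 0.40). RNF43 was higher in knockdown1 by 1.00 (SE 0.16, adjusted p = 1.78e-05). LGR5 was lower in knockdown1, at -0.40 (SE 0.14, adjusted p = 0.0320), the call that single arrays could end. The brighter HNF4G probe set gave -0.72 between the same groups (SE 0.28, adjusted p = 0.0517). The dimmer HNF4G probe set gave 0.28 (adjusted p = 0.831 over all probe sets), and the mean over its probe sets -0.22 (adjusted p = 0.755). How HNF4G relates to the 3 genes was not tested.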

How the results depend on the processing

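The calls of DKK1, AXIN2 and NKD1 over both knockdowns, and those of DKK4 and RNF43 in knockdown2, held under every alternative run that tested them. With all 9 arrays required above the median, DKK4 was not tested. With the 6 knockdown arrays as 1 group, added after seeing the data, 3 of the 9 genes were called over both knockdowns instead of 5, 24 further pathway genes instead of 39, and 2205 of all tested genes instead of 4256. Leaving out each array gave 5 to 6 called of the 9 over both knockdowns, 3 to 4 in knockdown1, 5 to 6 in knockdown2 and 2 to 3 between them, 33 to 42 pathway genes, and -1.02 to -0.84 for HNF4G. Without scaling the median over all genes was 0.08 between the knockdowns, beside -0.03 with it. Over both knockdowns, all calls split into 2575 higher and 1853 lower without control replicate 3 but 1468 higher and 2787 lower without control replicate 2; the cause was not tested. Deviations from the group means correlated above 0.1 in 1 of 9 pairs of arrays with the same number (-0.02 to 0.13). They did so in 0 of 18 pairs with unlike numbers (-0.12 to 0.09). For 5 of the 9 arrays the highest correlation was with an array of the same number. The number was not taken as pairing, which these values do not settle. A replicate block called 4905 genes over both knockdowns, 5 of the 9 genes among them, and added ZNRF3 in knockdown1 (-0.33, adjusted p = 0.0227). With the mean over probe sets, HNF4G was called in knockdown2 (-1.52, adjusted p = 0.0111). That mean holds the dimmer probe set, which passed the filter only through the control arrays. Dim signals limit DKK4 in knockdown2 and WNT10B on 6 of 9 arrays.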

Other observations

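For the 4 genes that changed most, the 2 tested genes with the closest profiles were found by the root mean square difference over the 9 arrays in log2 value relative to the control mean, as a description without a test. DKK1 was closest to FRMD5 (0.17) and WBP4 (0.18), which had log2 fold changes of 1.69 and 1.53 in knockdown1 and 1.66 and 1.57 in knockdown2. NKD1, by its brightest probe set, was closest to ZNF426 (0.07) and ANKRD12 (0.10). RNF43 was closest to MEIS2 (0.11) and SLC39A11 (0.15), both little changed in knockdown1 (-0.15 and -0.10) and lower in knockdown2 (-1.08 each). DKK4 had no close neighbour, the nearest being TNFSF10, which encodes the death ligand TRAIL (0.73), and the complement gene C8B (0.81).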
